A study of Mus musculus with 6 samples.

Results

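The genes of cholesterol synthesis, uptake and efflux were followed in mouse small-intestinal organoids given arachidonic acid. A list of 31 sterol genes was matched by symbol to the 53953 rows of the expression tables, and all 31 were found. Of these, 22 are grouped here as driven by the transcription factor SREBP2, 3 (Abca1, Abcg1 and Mylip) are driven by the liver X receptors (LXRs), and 6 are other regulators, receptors and transporters of sterols. Such organoids are epithelial cultures grown from crypts, in which stem cells and differentiated cells of the gut lining are found together. Crypts came from the proximal small intestine of C57BL/6 wild-type mice and were grown in Matrigel to passage 3 to 5. The treated organoids received arachidonic acid (a polyunsaturated fatty acid of the omega-6 family) in 0.1% ethanol for 3 days before passaging, and the vehicle organoids received 0.1% ethanol alone. RNA was taken on day 3 after passaging from 3 libraries per group. The sources used here state neither the dose of arachidonic acid nor whether separate mice or cultures gave the libraries of each group. The p-values therefore reflect how far these 3 libraries per group vary, which may be technical variation.

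Cells make cholesterol from acetyl-CoA through mevalonate, squalene and lanosterol. When sterols in the endoplasmic reticulum run low, SCAP carries SREBP2 to the Golgi, where it is cleaved and then switches on the genes of synthesis and uptake; when sterols are ample, INSIG proteins hold SCAP back. LXRs are nuclear receptors that sense oxidised sterols and switch on genes that remove cholesterol from the cell. Polyunsaturated fatty acids are known in cultured cells to lower SREBP activity, more for SREBP1 than for SREBP2. In the small intestine, absorptive cells take up dietary cholesterol through NPC1L1, esterify it, and export it in lipoproteins or return it to the lumen.

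The values were FPKM, fragments scaled by gene length and by library depth. The depth inferred from the values was 35.6 to 50.8 M fragments with arachidonic acid and 36.6 to 38.6 M fragments with vehicle. All 6 epithelial markers were present in every library, of which Epcam and Cdx2 fell, Krt8 rose and Cdh1, Vil1 and Krt20 were not called. The summed level of 6 mesenchymal markers was 0.111 to 0.364 FPKM with arachidonic acid and 0.287 to 0.426 FPKM with vehicle, and that of 3 endothelial markers was 0.0666 to 0.112 FPKM with arachidonic acid and 0.0420 to 0.188 FPKM with vehicle. Of 4 neural and glial markers, summing to 0.775 to 1.26 FPKM with arachidonic acid and 3.06 to 4.34 FPKM with vehicle, and of the endothelial ones, Sox10 and Cdh5 were at 0 throughout. Tubb3, of the neural and glial markers, was called lower. It had 0.745, 0.234 and 0.140 FPKM with arachidonic acid and 2.65, 3.37 and 2.49 FPKM with vehicle. The 5 immune markers summed to 4.71 to 24.9 FPKM with arachidonic acid and 1.94 to 3.05 FPKM with vehicle, most of it Cd68. Cd68 was called higher, while the pan-leukocyte gene Ptprc stayed at or below 0.0474 FPKM in every library. The 6 enterocyte markers summed to 1772 to 4420 FPKM with arachidonic acid and 686 to 916 FPKM with vehicle, and moved in both directions. Fabp1 alone had 4094, 1984 and 1617 FPKM with arachidonic acid and 313, 412 and 339 FPKM with vehicle. The higher sum therefore reflects Fabp1 and does not describe the enterocyte markers as a set. Alpi and Fabp1 rose, Sis, Lct and Apoa4 fell, and Apoa1 was not called. The part of these cell-type shifts in the results below was not tested, and in bulk RNA fewer cells of a type cannot be told apart from less RNA per cell. Arachidonic acid replicate 1 stood between the groups: on the first principal component, which held 85.2% of the variance, it lay at 10.2, against 58.1 and 54.6 for replicates 2 and 3 and -41.6 to -40.4 for the vehicle libraries. Results that rest on it are given with and without it.

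The sterol genes did not move as a block. With a threshold of 0.05 on limma's Benjamini-Hochberg adjusted p, 28 of the 31 genes passed the filter of a mean of 1 FPKM over the 6 libraries and were tested, and 6 rose, 9 fell and 13 were not called. Over all 12913 genes tested, 40.2% were called, 20.8% as higher and 19.4% as lower. The sterol genes called higher were thus near the share of all genes, and those called lower were somewhat above it. The median log2 fold change of the 28 was -0.18, against -0.03 over all tested genes. The SREBP2-driven genes numbered 3 higher, 6 lower and 13 not called of 22, with a median of -0.18. The 6 other sterol genes were all called, 3 higher and 3 lower. None of the 3 LXR-driven genes passed the filter. Without arachidonic acid replicate 1, 12 SREBP2-driven genes were lower and 3 higher, beside 32.3% and 27.4% of all genes (59.8% called). With any other library left out instead, 4 SREBP2-driven genes were lower and 3 higher, and of the other sterol genes 1 was higher and 2 were lower, beside 9.84% to 11.7% of all genes called lower and 13.3% to 15.1% called higher.

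**Figure D1:**
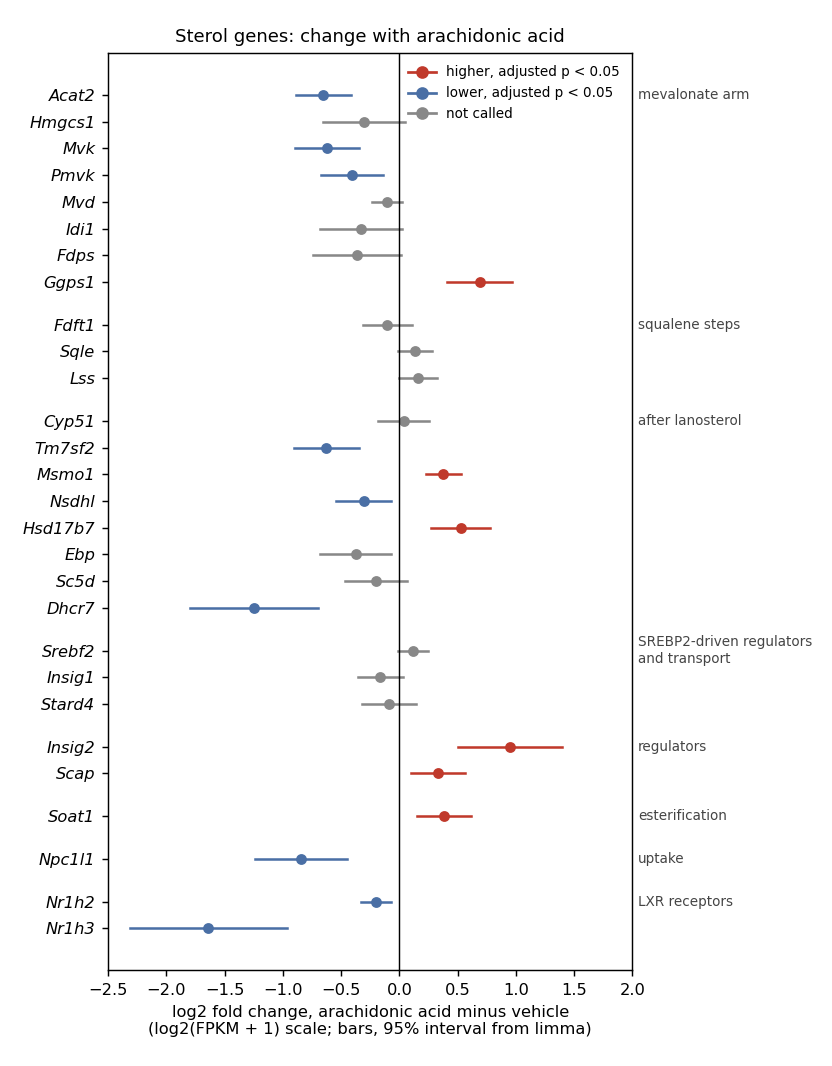
Log2 fold change, arachidonic acid minus vehicle on the log2(FPKM + 1) scale, of the 28 tested sterol genes, ordered by their place in the pathway; bars are 95% intervals from limma and colours mark the call. Calls in both directions stand next to each other among the enzymes, and the widest shifts are those of Nr1h3 and Dhcr7 on the lower side and Insig2 on the higher side.

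RefSeq promoters (mouse build GRCm38.p6) were matched by symbol for 26 of the 31 genes, as windows of 250 bases before and 50 after the transcription start. They were searched on both strands for the sterol regulatory element (SRE) forms TCACNCCAC and CACNCCAC, of which the shorter lies within the longer, for the NF-Y box CCAAT, whose factor works beside SREBP2, for the GC box GGGCGG, and for an LXR element (the letters GGTNA, any 5 bases and GGTCA). The longer SRE form was found in 1 of 18 SREBP2-driven genes, Hmgcs1, and in 1.44% of all 27025 genes with a promoter. The shorter form was found in 3 of 18, Acat2, Hmgcs1 and Insig1, and in 7.12% of all genes. A gene with more than 1 promoter was counted if any of them held the motif. The NF-Y box was found in 17 of 18, all but Acat2, and in 41.1% of all genes and 43.2% of the 9112 tested genes with a promoter. For Dhcr7 and Pmvk only some of the promoters held it. It was found in 3 of the 3 SREBP2-driven genes called higher, in 5 of the 6 called lower and in 9 of the 9 not called that had a promoter. With 17 of 18 holding it, its presence could not separate the calls. The GC box was found in 16 of 18 and in 38.2% of all genes and 69.3% of tested genes. The LXR element was found in Abca1 alone of the 26, and in 0.226% of all genes. Abcg1 was among the genes without a matched promoter and was not searched. The following 4 promoters, each the 250 bases before the start on the gene's strand, show an SREBP2-driven gene of each call and the LXR-driven gene with an element. Capitals mark the longer SRE and the NF-Y box, on either strand, in Hmgcs1 (chr13:119690101-119690350, plus strand, not called), the NF-Y box in Mvk (chr5:114444019-114444268, plus strand, lower) and in Msmo1 (chr8:64733579-64733828, minus strand, higher), and the LXR element in Abca1 (chr4:53159896-53160145, minus strand).
Hmgcs1: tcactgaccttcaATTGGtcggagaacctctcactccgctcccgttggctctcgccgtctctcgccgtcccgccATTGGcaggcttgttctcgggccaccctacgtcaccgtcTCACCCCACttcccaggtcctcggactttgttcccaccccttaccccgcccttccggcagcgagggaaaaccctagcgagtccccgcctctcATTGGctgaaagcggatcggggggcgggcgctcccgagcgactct
Mvk: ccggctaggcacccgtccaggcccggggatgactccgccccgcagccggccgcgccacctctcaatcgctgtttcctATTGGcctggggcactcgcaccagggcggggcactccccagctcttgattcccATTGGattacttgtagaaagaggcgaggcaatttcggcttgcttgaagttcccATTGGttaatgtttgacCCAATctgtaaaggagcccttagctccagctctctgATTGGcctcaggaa
Msmo1: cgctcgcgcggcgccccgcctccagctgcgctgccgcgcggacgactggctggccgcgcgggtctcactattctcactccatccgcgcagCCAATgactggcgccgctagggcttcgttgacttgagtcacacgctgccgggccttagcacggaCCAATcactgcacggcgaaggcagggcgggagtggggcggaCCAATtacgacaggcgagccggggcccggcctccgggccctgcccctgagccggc
Abca1: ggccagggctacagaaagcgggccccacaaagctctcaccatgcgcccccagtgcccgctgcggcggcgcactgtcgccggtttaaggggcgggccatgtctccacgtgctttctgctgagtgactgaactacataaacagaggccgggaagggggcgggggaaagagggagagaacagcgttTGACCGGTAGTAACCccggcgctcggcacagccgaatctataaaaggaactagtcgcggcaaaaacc
In these bases Hmgcs1 holds 1 longer SRE and 3 NF-Y boxes, Mvk holds 5 NF-Y boxes, Msmo1 holds 3 NF-Y boxes, and Abca1 holds 1 LXR element. A match describes the letters and does not show binding.

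Of the 8 enzymes of the mevalonate arm, which make the isoprenoid units, 3 fell (Acat2, Mvk and Pmvk), 1 rose (Ggps1) and 4 were not called. Their median log2 fold change was -0.35, and 19.4% of all tested genes were lower and 20.8% higher. Acat2, the cytosolic thiolase that joins acetyl-CoA units, had 76.4, 63.9 and 61.3 FPKM with arachidonic acid and 98.0, 112 and 108 FPKM with vehicle. Every arachidonic acid library lay below every vehicle library, at 67.2 ± 8.05 FPKM with arachidonic acid and 106 ± 7.18 FPKM with vehicle (mean ± SD, n = 3 libraries each, as in all values below), a log2 fold change of -0.65 (SE 0.10, adjusted p = 0.0041). Acat2 shares 39.1% of its 50-base stretches with other genes, Acat3 and Tcp1, so its level is uncertain by the reads they may share.

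Mvk, mevalonate kinase, had 34.7, 26.6 and 27.0 FPKM with arachidonic acid, against 47.0, 42.6 and 47.1 FPKM with vehicle. The groups did not overlap (log2 fold change -0.62, SE 0.11, adjusted p = 0.0072), with means of 29.4 ± 4.58 FPKM with arachidonic acid and 45.5 ± 2.57 FPKM with vehicle. Pmvk, the kinase of the following step, had 62.5, 49.6 and 46.5 FPKM with arachidonic acid and 69.3, 71.3 and 68.5 FPKM with vehicle. It fell by 0.40 on the log2 scale (adjusted p = 0.028), a call that was lost when any library other than arachidonic acid replicate 1 was left out (adjusted p = 0.075 to 0.091) and, at an adjusted p of 0.063, with no filter on low values.

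Ggps1, which makes geranylgeranyl diphosphate for protein prenylation rather than for sterols, went the other way. It had 17.5, 22.7 and 23.2 FPKM with arachidonic acid, all above the 12.6, 12.2 and 13.1 FPKM with vehicle. The means were 21.1 ± 3.15 FPKM with arachidonic acid and 12.6 ± 0.486 FPKM with vehicle, a log2 fold change of 0.69 (SE 0.12, adjusted p = 0.0055). Ggps1 overlaps Arid4b on the opposite strand and shares 9.6% of its 50-base stretches with other genes.

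The 4 genes of this arm that were not called had negative log2 fold changes. Hmgcs1, the synthase that feeds the rate-limiting step, had 133, 99.8 and 90.5 FPKM with arachidonic acid and 119, 137 and 140.0 FPKM with vehicle. Hmgcs1 shares 11.6% of its 50-base stretches with other genes. Replicate 1 lay within the vehicle range and the other two arachidonic acid libraries below it (log2 fold change -0.30, 95% interval -0.66 to 0.05, adjusted p = 0.14), and without replicate 1 it was lower (log2 fold change -0.46, adjusted p = 0.0019). Idi1, which interconverts the isoprenoid units, had 127, 83.4 and 92.6 FPKM with arachidonic acid and 126, 127 and 122 FPKM with vehicle (log2 fold change -0.33, adjusted p = 0.12). Without replicate 1 it was lower, at -0.50 (adjusted p = 0.00028). Fdps, which makes farnesyl diphosphate, had 8.45, 7.13 and 5.17 FPKM with arachidonic acid, each below the 8.68, 9.43 and 9.05 FPKM with vehicle (log2 fold change -0.37, adjusted p = 0.11, and -0.50 with adjusted p = 0.0087 without replicate 1). Of their 50-base stretches, 25.3% of Idi1 and 26.2% of Fdps recur in other genes, 7 of them processed pseudogenes for Fdps and 4 for Idi1. Fdps also overlaps Gm43738 on the same strand, so its level is uncertain by the reads they may share. Mvd, which makes isopentenyl diphosphate, had 41.3, 42.2 and 42.5 FPKM with arachidonic acid, just under the 45.6, 45.0 and 45.1 FPKM with vehicle (log2 fold change -0.10, 95% interval -0.23 to 0.03, adjusted p = 0.17).

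**Figure D2:**
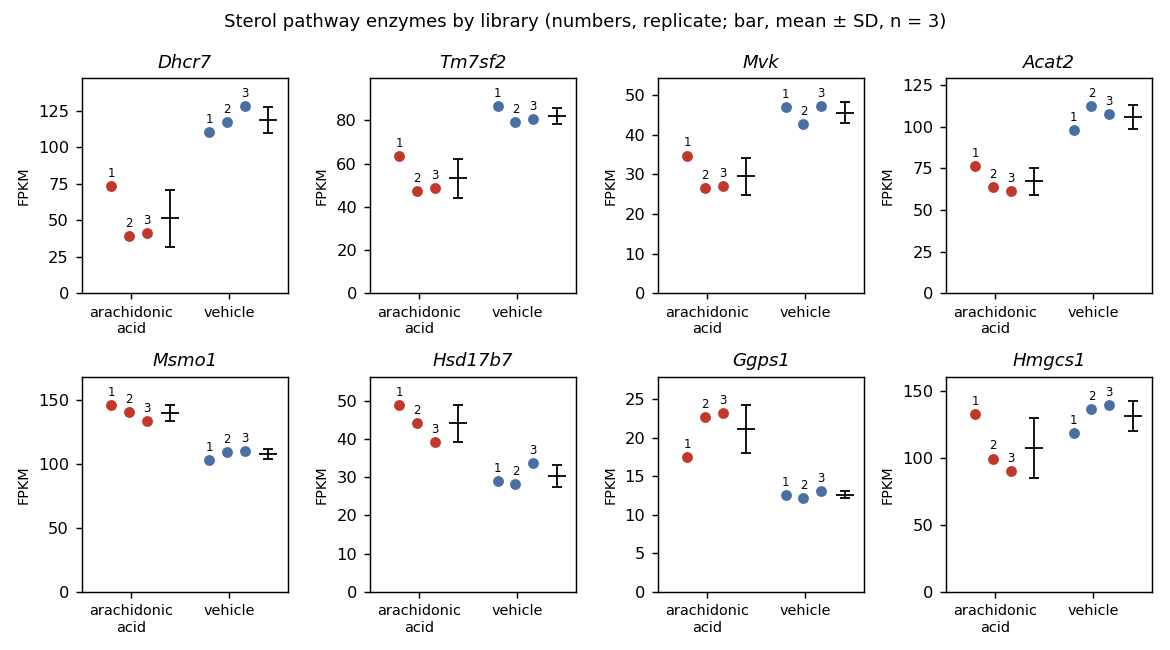
FPKM in each library of 8 enzymes of the pathway, with arachidonic acid left of vehicle; numbers are replicates and bars the mean ± SD of 3 libraries. Dhcr7, Tm7sf2, Mvk and Acat2 lie lower in every arachidonic acid library, Msmo1, Hsd17b7 and Ggps1 lie higher in each, and for Hmgcs1 replicate 1 of arachidonic acid lies among the vehicle values.

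The 3 squalene steps were not called, with a median log2 fold change of 0.13. Sqle, squalene epoxidase, a rate-limiting enzyme, had 88.7, 83.9 and 80.5 FPKM with arachidonic acid and 74.99, 78.5 and 76.8 FPKM with vehicle, without overlap (log2 fold change 0.13, 95% interval -0.01 to 0.28, adjusted p = 0.12). Lss, which closes the ring to lanosterol, had 68.2, 73.2 and 68.4 FPKM with arachidonic acid and 58.6, 64.7 and 64.4 FPKM with vehicle, also without overlap (log2 fold change 0.16, adjusted p = 0.10). Fdft1, squalene synthase, had 53.6, 45.0 and 46.3 FPKM with arachidonic acid and 48.8, 55.4 and 51.6 FPKM with vehicle, and its groups overlapped (log2 fold change -0.10, adjusted p = 0.37). Fdft1 shares 26.5% of its 50-base stretches, mostly with Ctsb on the opposite strand.

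Calls after lanosterol went in both directions, as they did over all tested genes, of which 20.8% were higher and 19.4% lower. Of 8 enzymes, 2 rose (Msmo1 and Hsd17b7), 3 fell (Tm7sf2, Nsdhl and Dhcr7) and 3 were not called, with a median log2 fold change of -0.26. Dhcr7, which carries out the last reduction to cholesterol in the Kandutsch-Russell branch, had the most negative log2 fold change of the 19 enzymes. It had 73.5, 39.0 and 41.2 FPKM with arachidonic acid, all below the 110.2, 117 and 128 FPKM with vehicle. The means were 51.2 ± 19.3 FPKM with arachidonic acid and 118 ± 8.86 FPKM with vehicle, a ratio of 0.433, and the log2 fold change was -1.25 (SE 0.23, adjusted p = 0.0074), or -1.54 without arachidonic acid replicate 1.

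Tm7sf2, a sterol reductase that acts after lanosterol demethylation, had 63.3, 47.3 and 48.6 FPKM with arachidonic acid and 86.4, 79.0 and 80.5 FPKM with vehicle. The groups did not overlap (log2 fold change -0.63, SE 0.12, adjusted p = 0.0077), with means of 53.1 ± 8.90 FPKM with arachidonic acid and 82.0 ± 3.88 FPKM with vehicle. Tm7sf2 overlaps Vps51 on the same strand and shares 9.9% of its 50-base stretches with it. Nsdhl, part of the complex that removes the methyl groups at carbon 4, had 48.0, 40.4 and 38.6 FPKM with arachidonic acid and 48.6, 53.4 and 55.2 FPKM with vehicle. It fell by 0.31 (adjusted p = 0.045), with replicate 1 just below the lowest vehicle library, and the call was lost with no filter, under TPM rescaling and under a replicate block (adjusted p = 0.086, 0.095 and 0.101), and when any library other than arachidonic acid replicate 1 was left out (adjusted p = 0.069 to 0.148).

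Msmo1 and Hsd17b7, which act in the same demethylation, rose. Msmo1, the oxidase that opens the reaction, had 146, 141 and 134 FPKM with arachidonic acid and 103, 109.7 and 110.4 FPKM with vehicle, without overlap. The means were 140.3 ± 6.15 FPKM with arachidonic acid and 108 ± 4.07 FPKM with vehicle. Its log2 fold change was 0.38 (SE 0.06, adjusted p = 0.0053). Hsd17b7, the reductase that closes it, had 48.9, 44.1 and 39.2 FPKM with arachidonic acid and 28.9, 28.2 and 33.7 FPKM with vehicle. Its means were 44.1 ± 4.83 FPKM with arachidonic acid and 30.3 ± 3.00 FPKM with vehicle, and its log2 fold change was 0.53 (SE 0.11, adjusted p = 0.00998). In both genes arachidonic acid replicate 1 lay farther from the vehicle libraries than replicates 2 and 3. Without it the log2 fold changes were 0.35 for Msmo1 and 0.45 for Hsd17b7.

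The other 3 were not called. Cyp51, lanosterol demethylase, had 235, 189 and 198 FPKM with arachidonic acid and 195, 202 and 206 FPKM with vehicle, with wide overlap (log2 fold change 0.04, 95% interval -0.18 to 0.25, adjusted p = 0.77, and -0.0081 with quantile normalization). Ebp, the sterol isomerase, had 47.8, 34.1 and 37.2 FPKM with arachidonic acid and 47.6, 53.9 and 52.4 FPKM with vehicle (log2 fold change -0.38, adjusted p = 0.057, and -0.51 with adjusted p = 0.00060 without replicate 1). Sc5d, the desaturase that precedes Dhcr7, had 50.5, 41.1 and 38.2 FPKM with arachidonic acid and 48.3, 53.2 and 47.6 FPKM with vehicle (log2 fold change -0.20, adjusted p = 0.18, and -0.32 with adjusted p = 0.0056 without replicate 1). For Ebp and Sc5d replicate 1 lay inside the vehicle range and the other two libraries below it.

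The 3 SREBP2-driven genes outside the enzymes were not called. Srebf2, which encodes SREBP2 itself, had 66.5, 68.4 and 66.8 FPKM with arachidonic acid and 61.4, 61.7 and 62.5 FPKM with vehicle, with a gap between the groups (log2 fold change 0.12, 95% interval -0.01 to 0.24, adjusted p = 0.12). With TPM rescaling it was called higher (adjusted p = 0.049). Insig1, the INSIG that SREBP2 induces, had 221, 233 and 197 FPKM with arachidonic acid and 229, 248.97 and 250.1 FPKM with vehicle (log2 fold change -0.16, 95% interval -0.36 to 0.03, adjusted p = 0.14). Stard4, a sterol carrier between membranes, had 167, 141 and 133 FPKM with arachidonic acid and 146, 161 and 161 FPKM with vehicle (log2 fold change -0.09, adjusted p = 0.49, and -0.19 with adjusted p = 0.040 without replicate 1). Both of these overlapped between the groups.

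Summed over the 22 SREBP2-driven genes, the level was 1878.9, 1615.7 and 1555.2 FPKM with arachidonic acid and 1814.0, 1923.0 and 1931.9 FPKM with vehicle. Arachidonic acid replicates 2 and 3 were below the vehicle libraries and replicate 1 was among them. The median of the 22 genes, each set against its own vehicle mean on the log2 scale, was 0.02, -0.24 and -0.34 with arachidonic acid and -0.06, 0.03 and 0.03 with vehicle. Of the 22 genes, 10, 16 and 16 lay below their vehicle mean with arachidonic acid and 18, 7 and 7 with vehicle, so this count did not separate the groups.

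**Figure D3:**
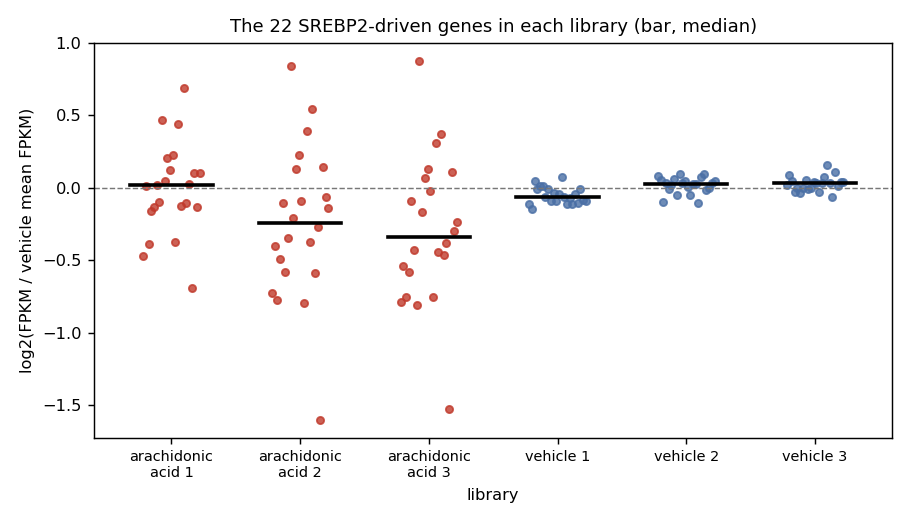
Level of each of the 22 SREBP2-driven genes in each library, as log2 of its FPKM over its vehicle mean (which the vehicle libraries themselves set); each point is a gene and the bar is the median. Arachidonic acid replicates 2 and 3 have medians of -0.24 and -0.34 with genes on both sides of 0, and replicate 1 has a median of 0.02.

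Insig2 and Scap, regulators of SREBP2 cleavage, rose. Insig2, the INSIG isoform that SREBP2 is not known to induce, had 45.5, 76.5 and 69.8 FPKM with arachidonic acid, all above the 33.2, 32.7 and 29.8 FPKM with vehicle. Its means were 63.9 ± 16.3 FPKM with arachidonic acid and 31.9 ± 1.85 FPKM with vehicle, a ratio of 2.004 (log2 fold change 0.95, SE 0.19, adjusted p = 0.0090). The ratio of Insig2 to Insig1 FPKM was 0.206, 0.329 and 0.354 with arachidonic acid and 0.145, 0.131 and 0.119 with vehicle, so Insig1 stayed the more abundant of the pair per length in every library. Scap, the SREBP escort, had 72.8, 86.5 and 93.9 FPKM with arachidonic acid and 66.5, 64.9 and 67.7 FPKM with vehicle (log2 fold change 0.33, adjusted p = 0.034). Scap shares part of its sequence with a gene on the opposite strand. Its call was lost with no filter and with quantile normalization (adjusted p = 0.0695 and 0.057) and when any library other than arachidonic acid replicate 1 was left out (adjusted p = 0.083 to 0.106).

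Npc1l1 fell and Soat1 rose. Npc1l1, the intestinal cholesterol importer, had 17.9, 16.9 and 11.7 FPKM with arachidonic acid and 24.8, 30.99 and 29.1 FPKM with vehicle. The groups did not overlap (log2 fold change -0.84, SE 0.17, adjusted p = 0.0090), with means of 15.5 ± 3.31 FPKM with arachidonic acid and 28.3 ± 3.20 FPKM with vehicle. Soat1, an enzyme that esterifies cholesterol for storage, had 153, 189 and 190.5 FPKM with arachidonic acid and 131, 139 and 135 FPKM with vehicle. It rose by 0.38 (178 ± 21.6 FPKM with arachidonic acid and 135 ± 3.95 FPKM with vehicle, adjusted p = 0.021), a call lost when any library other than arachidonic acid replicate 1 was left out (adjusted p = 0.058 to 0.076).

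Both LXR genes fell. Nr1h3, which encodes LXR alpha, had 13.3, 5.14 and 7.16 FPKM with arachidonic acid and 25.6, 26.8 and 28.3 FPKM with vehicle. All arachidonic acid libraries lay below the vehicle libraries, at 8.52 ± 4.23 FPKM with arachidonic acid and 26.9 ± 1.36 FPKM with vehicle, a ratio of 0.317. Its log2 fold change, -1.64 (SE 0.28, adjusted p = 0.0060), was the most negative of the 28 tested sterol genes, and it was -1.98 without replicate 1. The annotation places Gm13783 over Nr1h3 on the same strand. Nr1h2, which encodes LXR beta, had 62.1, 62.8 and 60.0 FPKM with arachidonic acid and 71.6, 71.5 and 69.5 FPKM with vehicle. It fell by 0.20 (adjusted p = 0.028), a call lost under TPM rescaling and under a replicate block (adjusted p = 0.097 and 0.072), and when any library other than arachidonic acid replicate 1 was left out (adjusted p = 0.066 to 0.117). The ratio of Nr1h3 to Nr1h2 FPKM was 0.214, 0.0819 and 0.119 with arachidonic acid and 0.358, 0.375 and 0.408 with vehicle, so Nr1h2 was the more abundant receptor transcript per length throughout.

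The 3 LXR-driven genes had low levels and lay on both sides of vehicle. Abca1, the transporter that loads cholesterol onto apolipoprotein A-I, had 1.303, 1.39 and 0.739 FPKM with arachidonic acid, all above the 0.417, 0.679 and 0.616 FPKM with vehicle. The means were 1.14 ± 0.353 FPKM with arachidonic acid and 0.571 ± 0.137 FPKM with vehicle, a ratio of 2.005. These levels rested on about 365, 273 and 198 fragments with arachidonic acid and 86.1, 137 and 131 with vehicle.

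Abcg1, a sterol exporter to lipoproteins, lay below every vehicle library in each arachidonic acid library. It had 0.0839, 0.132 and 0.0439 FPKM with arachidonic acid and 0.388, 0.245 and 0.177 FPKM with vehicle, a ratio of means of 0.321. It rested on no more than about 9.23 fragments per arachidonic acid library and 28.5 per vehicle library. Mylip, a ubiquitin ligase that degrades lipoprotein receptors, had 0.526, 0.0560 and 0.287 FPKM with arachidonic acid and 0.928, 0.785 and 0.754 FPKM with vehicle. Its arachidonic acid values spread widely and all lay below the vehicle values, with a ratio of means of 0.352.

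None of the 3 was called by the alternatives that could test them. With no filter on low values, which called 16.6% of 28021 genes (9.11% higher and 7.46% lower), the log2(FPKM + 1) fold changes were 0.44 for Abca1, -0.22 for Abcg1 and -0.51 for Mylip (adjusted p = 0.12, 0.084 and 0.064). With limma-voom on recovered fragments at a mean of at least 10, a setting chosen after seeing the data that called 35.2% of 15847 genes (18.0% higher and 17.3% lower), the log2 fold changes were 0.96 for Abca1, -1.73 for Abcg1 and -1.82 for Mylip (SE 0.33, 0.57 and 0.62, adjusted p = 0.059, 0.0503 and 0.056). Unadjusted p was under 0.05 for all 3 in both, as it was for 30.9% of all genes with no filter and 46.8% with limma-voom. Groups that do not overlap were common in these libraries, 55.0% of all tested genes (27.6% with arachidonic acid above and 27.5% below), and among the 28 tested sterol genes there were 9 above, 11 below and 8 with overlap. The SREBP2-driven gene with the lowest values, Fdps, averaged 6.92 FPKM with arachidonic acid and 9.05 FPKM with vehicle. It lay above all 3 LXR-driven genes in every library, though its level is uncertain by the reads it may share with other genes.

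**Figure D4:**
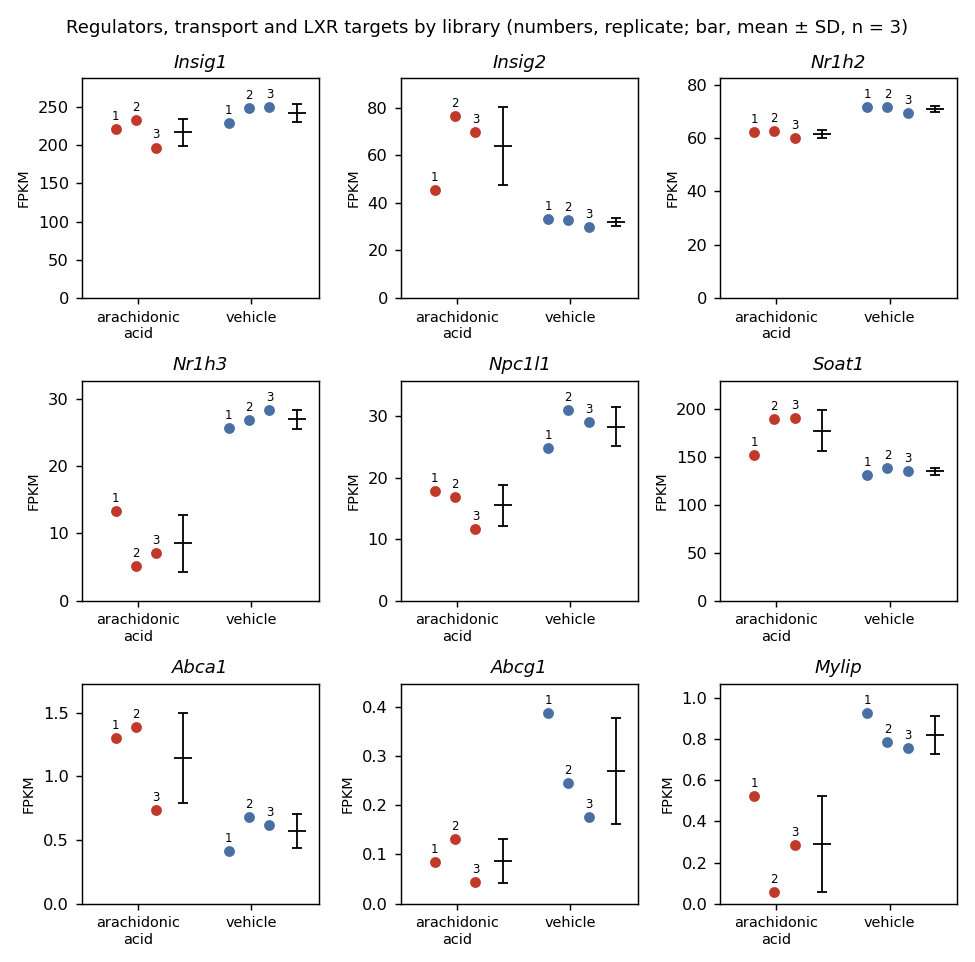
FPKM in each library of 9 regulators, transporters and LXR targets, with arachidonic acid left of vehicle; numbers are replicates and bars the mean ± SD of 3 libraries. Insig2 and Soat1 lie higher and Nr1h3, Nr1h2 and Npc1l1 lower in every arachidonic acid library, while Abca1 lies above and Abcg1 and Mylip below vehicle at levels near or under 1 FPKM.

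The wider sterol pathway was read from 46 further genes, of which 42 were tested, and 12 rose, 11 fell and 19 were not called. Their median log2 fold change was 0.01, and 20.8% of all tested genes were higher and 19.4% lower. The count of lower genes was 7 under TPM rescaling and 7 under a replicate block, beside 15.9% and 15.5% of all genes. It was 5 without each of vehicle replicates 1 and 2 and arachidonic acid replicates 2 and 3, and 6 without vehicle replicate 3. In those settings 9.84% to 11.7% of all genes were lower. Without arachidonic acid replicate 1 the count was 15, beside 32.3% of all genes. Of the 12 genes with the smallest p, 11 are named here. Lipa, Nceh1 and Npc1, which free cholesterol from esters or lysosomes, rose. Lipa, the lysosomal acid lipase, had 22.5, 30.9 and 26.1 FPKM with arachidonic acid and 6.58, 6.78 and 6.84 FPKM with vehicle, without overlap (log2 fold change 1.82, SE 0.12, adjusted p = 0.00041). Nceh1, a cholesteryl ester hydrolase, averaged 43.9 ± 8.89 FPKM with arachidonic acid and 11.0 ± 1.80 FPKM with vehicle (log2 fold change 1.89, adjusted p = 0.0010). Npc1, the lysosomal exporter, averaged 13.0 ± 3.61 FPKM with arachidonic acid and 5.50 ± 1.02 FPKM with vehicle (log2 fold change 1.08, adjusted p = 0.0098), while Npc2, its soluble partner, fell to 114 ± 4.45 FPKM with arachidonic acid, against 149 ± 2.84 FPKM with vehicle (log2 fold change -0.38, adjusted p = 0.0039).

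Gramd1b, an endoplasmic reticulum protein that carries cholesterol in from the plasma membrane, averaged 9.30 ± 1.13 FPKM with arachidonic acid and 1.67 ± 0.436 FPKM with vehicle (log2 fold change 1.95, adjusted p = 0.00067). Cyp27a1, which makes 27-hydroxycholesterol, rose to 6.03 ± 0.843 FPKM with arachidonic acid, against 2.55 ± 0.309 FPKM with vehicle (log2 fold change 0.98, adjusted p = 0.0027). Mbtps2, a protease that cleaves SREBPs, averaged 28.2 ± 3.62 FPKM with arachidonic acid and 17.7 ± 1.73 FPKM with vehicle (log2 fold change 0.64, adjusted p = 0.0072), and it overlaps Yy2 on the same strand, so its reads may be shared. These 3 genes rose, and each group lay apart from the other.

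Srebf1, Pcyt2 and Acly fell. Srebf1, which encodes SREBP1 and is itself an LXR target, had 141, 111 and 108 FPKM with arachidonic acid and 218, 215 and 224 FPKM with vehicle, without overlap (log2 fold change -0.87, SE 0.11, adjusted p = 0.0021). The ratio of Srebf2 to Srebf1 FPKM was 0.471, 0.616 and 0.615 with arachidonic acid and 0.282, 0.288 and 0.279 with vehicle. Pcyt2, of phosphatidylethanolamine synthesis, averaged 277 ± 27.2 FPKM with arachidonic acid and 449 ± 24.7 FPKM with vehicle (log2 fold change -0.70, adjusted p = 0.0024), and Acly, which supplies acetyl-CoA, averaged 114 ± 12.7 FPKM with arachidonic acid and 162 ± 8.75 FPKM with vehicle (log2 fold change -0.50, adjusted p = 0.0072).

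Among the LXR targets of the wider list, 8 genes of which 7 were tested, 1 rose (Arl4c) and 1 fell (Srebf1). Over all tested genes, 20.8% were higher and 19.4% lower, so these counts do not set the LXR targets apart. Arl4c, a small GTPase, had 1.84, 6.94 and 7.17 FPKM with arachidonic acid and 0.678, 0.286 and 0.213 FPKM with vehicle (log2 fold change 2.05, adjusted p = 0.0099). Its vehicle values were under 1 FPKM, so it passed the filter through the arachidonic acid libraries alone. Abcg5 and Abcg8, the pair of half-transporters that returns sterols to the gut lumen, were not called and are named here after their values were seen. Abcg5 had 89.1, 38.0 and 36.0 FPKM with arachidonic acid and 87.8, 101 and 91.4 FPKM with vehicle, with replicate 1 inside the vehicle range (log2 fold change -0.90, adjusted p = 0.067, and -1.31 with adjusted p = 3.4e-06 without replicate 1). Abcg8 had 51.7, 23.7 and 23.1 FPKM with arachidonic acid and 53.7, 58.7 and 56.5 FPKM with vehicle, with replicate 1 just below the vehicle range (log2 fold change -0.86, adjusted p = 0.054, and -1.23 with adjusted p = 2.1e-06 without replicate 1).

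In 15 called sterol genes, the value of arachidonic acid replicate 1 lay, at the median, 0.57 of the way between the vehicle mean (0) and the mean of arachidonic acid replicates 2 and 3 (1), with a range of 0.27 to 1.63. The same median was 0.625 over all called genes. Without replicate 1 all 15 calls held and 6 SREBP2-driven genes were added as lower, Hmgcs1, Idi1, Fdps, Ebp, Sc5d and Stard4. The share of all tested genes called lower also went up in that setting, from 19.4% to 32.3%.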

How the data were processed

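RNA from 6 organoid libraries was sequenced, 3 with arachidonic acid and 3 with vehicle. The deposited values are FPKM made by the authors, a unit inferred here from the values. FPKM times gene length (GENCODE M21) and an implied depth came out as whole fragments, within 0.1, for 95.5% to 96.7% of the values below 100 fragments. The implied depth of each library was the one that brought the most low values close to whole fragments, so this share was raised by that choice. The submitters' processing notes name featureCounts 1.5.0-p3, HISAT2 2.0.5 and StringTie 1.3.3b, with no role or order. None of the sources used here gives the build, the annotation or whether counting used strand, so genes that overlap or have near-identical copies are uncertain.

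Values were taken as log2(FPKM + 1), which understates the change of low genes. Genes averaging 1 FPKM or more were fitted with limma 3.58.1 (R 4.3.3) with group as the only term and a variance trend, and two-sided p-values were adjusted by Benjamini-Hochberg over 12913 genes at a threshold of 0.05. Fold changes are arachidonic acid minus vehicle. Fragments were recovered from the steps, and sum to 98.3% to 98.5% of the implied depth. The fit was tested on simulated data in which no library stood between the groups. That test therefore does not bear on how arachidonic acid replicate 1 affects the calls. Python 3.11.15 with pandas 2.3.3, numpy 2.4.6 and matplotlib 3.10.9 was used.

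The members and lists were chosen with earlier results of these data known. All 31 sterol genes are named, and of 46 wider genes the 12 called ones with the smallest p, of which 1 is not reported here; others named were chosen after their values were seen. The alternatives were a pseudocount of 0.1 FPKM, a minimum mean of 5 FPKM, no filter on low values, quantile normalization, TPM rescaling, median-of-ratios scaling, the replicate number as a block, limma-voom on recovered fragments and each library left out. Limma-voom at a mean of at least 10 fragments was added after seeing the data.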

Additional observations from a re-analysis of the deposited data

How the results depend on the processing

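Of the 15 called sterol genes, 10 kept direction and call in every alternative run: Acat2, Mvk, Ggps1, Tm7sf2, Msmo1, Hsd17b7, Dhcr7, Insig2, Npc1l1 and Nr1h3. The other 5, Pmvk, Nsdhl, Scap, Soat1 and Nr1h2, lost it as given beside each. The matching share over all called genes was not computed, so this count does not show the sterol genes to be more stable than others. Ebp was called lower with quantile normalization and with median-of-ratios scaling. Cyp51 changed sign, to -0.0081 with quantile normalization and to the lowest of its values with a library left out, which ranged over -0.057 to 0.10, and was never called. The SREBP2-driven genes numbered 4 higher and 5 lower with TPM rescaling, beside 23.9% and 15.9% of all genes. They numbered 3 and 7 with quantile normalization (18.9% and 23.1% of all genes) and with median-of-ratios scaling (21.6% and 19.5%). With no filter they numbered 3 and 4, beside 9.11% and 7.46%. Of the wider list, 7 genes were lower under TPM rescaling and 7 under the replicate block, against 11. Leaving out each library in turn gave 1721 to 3544 higher and 1270 to 4176 lower genes over the table, both highest without arachidonic acid replicate 1, 4 to 12 lower SREBP2-driven genes, 1 to 3 higher among the other sterol genes and 5 to 15 lower in the wider list. The fewest higher genes came without vehicle replicate 1, and 1732 came without arachidonic acid replicate 3. The groups share replicate numbers that the labels do not tie to a culture or a day. Deviations of the same number correlated across genes at -0.0811, 0.210 and -0.0623, and those of different numbers at -0.177 to 0.19. With 3 libraries per group, these correlations cannot tell whether libraries of the same number share a culture or a day. With the replicate block, the table gave 2263 higher and 1998 lower genes, the SREBP2-driven genes 3 and 5, the other sterol genes 3 and 2 and the wider list 11 and 7. The LXR-driven genes were tested only with no filter and at a mean of at least 10 fragments, and each gave 0 calls, with 3 genes under an unadjusted p of 0.05, beside 30.9% and 46.8% of all genes. With 3 libraries per group and levels averaging under 1 FPKM over the 6 libraries, differences in these genes may not be detectable at this depth. The causes of these shifts were not tested.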
